A study of Mus musculus with 9 samples.

Results

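The proteasome genes of mouse acute myeloid leukaemia (AML) cells were measured in 3 surroundings. Members were taken by symbol: Psma and Psmb genes (the 20S core particle), Psmc and Psmd genes (the 19S regulatory particle), Psme genes and Psmf1 (activators and a regulator) and Psmg genes (assembly chaperones), each followed by a number, without the immunoproteasome genes Psmb8, Psmb9 and Psmb10 and without pseudogenes. This gave 47 of 55291 symbols, of which 46 passed the filter on low counts, among 15066 genes tested. The symbol Psmc3ip also matched, although it encodes a meiotic recombination factor and no proteasome subunit, and it was kept apart from the role classes.

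All libraries came from AML cells of the genotype Trp53(R172H/delta), in which 1 allele of the tumour suppressor p53 carries the missense change R172H and the other is written as delta. The cells were taken from in vitro culture, or isolated from wild-type recipients, either from their bone marrow or from their lungs. Each group had 3 libraries, 9 in all. All 3 groups share this genotype, so no comparison bears on the p53 change itself. The labels name neither age nor sex of the recipients, nor a cell sort, nor the number of leukaemia clones. They also do not say that replicates came from separate mice or cultures, so p-values measure only the spread between these libraries.

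The proteasome degrades proteins that carry chains of ubiquitin. Its barrel, the 20S core, is built of stacked rings of alpha and beta subunits, and Psmb5, Psmb6 and Psmb7 carry the peptide-cutting sites. The 19S particle caps the barrel: its Psmc subunits are ATPases that unfold substrates and thread them in, and its Psmd subunits bind ubiquitin, remove it and hold the lid together. Blood cancers, myeloma above all, are known for their need of this machine, which is the target of bortezomib.

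Libraries held 27485111 to 38761363 counted reads. Levels are CPM, the counts scaled to a fixed library size, after TMM scaling (factors 0.966 to 1.04). Of 7 genes of leukaemia and progenitor identity 4 fell and 2 rose in bone marrow against culture (adjusted p under 0.05, edgeR). Against culture 3 fell and 2 rose in lung. Their summed level averaged 2085 CPM in culture, 1186 in bone marrow libraries and 1375 in lung. Kit, a receptor of early blood cells, averaged 1167, 633.0 and 631.0 CPM in the same order. Gata2 averaged 299.5, 52.3 and 186.0 CPM, Myb 544.6, 440.2 and 482.3 CPM, and Runx1 67.74, 42.35 and 51.99 CPM. Spi1 went up, at 3.94, 10.54 and 13.88 CPM. Cd34, a marker of progenitors, averaged 0.0360 CPM in culture, 0.347 in bone marrow libraries and 1.503 in lung. The pan-leukocyte gene Ptprc was also low, at 1.62 CPM in culture, 7.13 in bone marrow libraries and 8.11 in lung on average. RNA of marker genes of other cells also moved with the groups. The summed level of 10 neutrophil granule genes was 1.21 to 2.40 CPM in culture, 337.1, 591.9 and 2091 CPM in the bone marrow libraries, in replicate order, and 85.0, 11.7 and 11.99 CPM in lung. That of 10 lung epithelial genes was at most 1.02 CPM outside lung and 84.4, 38.9 and 14.9 CPM in lung, where all 10 genes had reads, while 5 were at 0 in culture and 3 in bone marrow. The part of such cells in the results below was not tested, and in bulk RNA fewer cells of a type and less RNA per cell cannot be told apart. Whether leukaemia cells or other cells made the granule gene RNA cannot be told apart either.

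Proteasome genes took a larger share of the transcriptome in both tissues than in culture. Of all counts, the 47 members together held 0.908% to 0.928% in culture, 1.34% to 1.49% in the bone marrow libraries and 1.23% to 1.29% in the lung libraries, with no overlap between groups. In bone marrow against culture 36 of 46 tested members rose, 3 fell and 7 did not pass (adjusted p under 0.05 in edgeR's quasi-likelihood test), where 30.7% of all tested genes rose and 29.8% fell. The 3 that fell were Psmd5, Psme4 and Psmg2. The members' median log2 change was 0.64, against 0.05 over all tested genes. Every bone marrow library lay above every culture library for 37 members and below for 4, as for 34.3% and 32.9% of all tested genes. In lung against culture 33 rose, 5 fell and 8 did not pass, where 27.9% of all tested genes rose and 27.0% fell, and the median was 0.47 against 0.02. The falls were those of Psma8, Psmd5, Psmd10, Psme4 and Psmg2. Here 36 members lay wholly above culture and 6 below, as did 34.0% and 32.9% of all tested genes. Between the tissues, in lung against bone marrow, 1 rose, 17 fell and 28 did not pass, where 14.2% of all tested genes rose and 11.1% fell, and the median was -0.19 against -0.01. Both tissue comparisons with culture use the same 3 culture libraries and are given side by side.

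**Figure D1:**
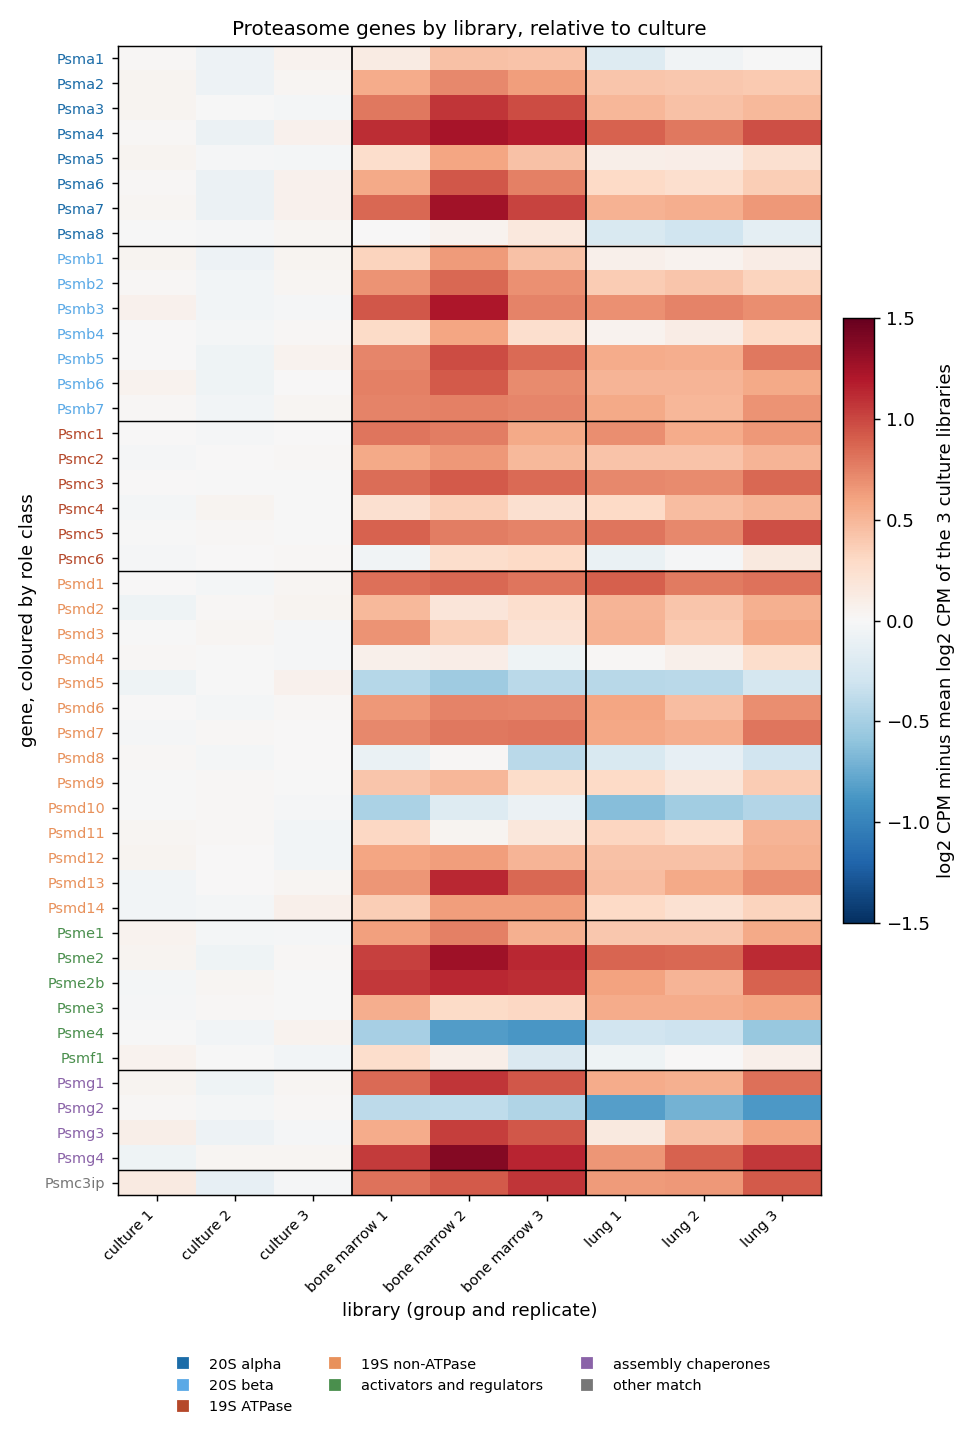
Level of each tested member in each of the 9 libraries, as log2 CPM minus that member's mean over the culture libraries (colour scale); rows are members ordered by role class and columns are libraries. Most rows are above culture in both tissues, with Psme4, Psmd5, Psmd10 and Psmg2 below it, and every 20S row except Psma8 is highest in bone marrow replicate 2.

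Promoter sequences were searched because most members rose together against culture. A known activator of proteasome genes, NRF1 (gene Nfe2l1), binds the antioxidant response element, whose core is TGACNNNGC. RefSeq's promoter table (GRCm38.p6) holds 39 of the 47 members among 27025 genes, and the 250 bases before each start were searched on both strands for 4 motifs. The core was in 5 of the 39 promoters (12.8%) and in 11.5% of all promoters. The NF-Y box CCAAT was in 14 (35.9%, against 37.5%), the E-box CACGTG in 3 (7.69%, against 6.86%) and the GC box GGGCGG in 21 (53.8%, against 35.4%). A match describes letters in this window only, and matches of different motifs may overlap. The 5 promoters with the antioxidant core follow, 5′ to 3′ on the gene's strand, with the core, or its reverse complement where the match is on the other strand, in capitals, and without bases annotated as untranslated.
Psmb5 (chr14:54618023-54618245, minus strand): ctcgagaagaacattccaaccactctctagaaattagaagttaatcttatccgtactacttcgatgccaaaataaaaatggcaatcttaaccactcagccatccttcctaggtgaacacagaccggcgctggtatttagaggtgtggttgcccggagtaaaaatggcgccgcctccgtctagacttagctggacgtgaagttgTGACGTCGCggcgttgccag
Psmb6 (chr11:70525107-70525356, plus strand): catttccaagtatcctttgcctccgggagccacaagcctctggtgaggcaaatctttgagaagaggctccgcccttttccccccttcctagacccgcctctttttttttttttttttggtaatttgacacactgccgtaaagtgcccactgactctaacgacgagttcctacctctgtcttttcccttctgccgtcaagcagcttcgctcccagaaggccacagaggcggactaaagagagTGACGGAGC
Psmd9 (chr5:123227940-123228189, plus strand): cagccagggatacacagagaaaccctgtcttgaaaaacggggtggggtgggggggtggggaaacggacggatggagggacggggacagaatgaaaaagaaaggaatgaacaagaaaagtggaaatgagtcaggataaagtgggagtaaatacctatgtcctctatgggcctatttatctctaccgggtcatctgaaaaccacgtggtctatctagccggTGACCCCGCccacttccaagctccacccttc
Psmd12 (chr11:107479278-107479483, plus strand): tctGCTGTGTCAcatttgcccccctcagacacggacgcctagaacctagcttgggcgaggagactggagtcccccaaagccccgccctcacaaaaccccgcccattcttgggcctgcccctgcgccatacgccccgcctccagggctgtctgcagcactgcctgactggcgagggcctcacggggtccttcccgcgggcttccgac
Psmc6 (chr14:45329574-45329787, plus strand): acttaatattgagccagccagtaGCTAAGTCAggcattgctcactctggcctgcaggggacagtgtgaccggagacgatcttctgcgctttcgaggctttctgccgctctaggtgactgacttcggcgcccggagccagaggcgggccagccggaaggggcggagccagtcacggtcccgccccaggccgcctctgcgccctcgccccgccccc
The core lay 47 bases before the start in Psmb5, 9 in Psmb6, 31 in Psmd9, 227 in Psmc6 and 247 in Psmd12. Psmb5, Psmb6, Psmd9 and Psmd12 rose in both tissues against culture, and Psmc6 did not pass in any of the 3 comparisons. Among all 46 tested members 36 rose in bone marrow and 33 in lung against culture. Whether the core bears on the rise was not tested.

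The 20S core was higher in bone marrow than in culture in nearly all its subunits and stood between them in lung. Summed over its 16 genes, the level was 3427, 3221 and 3433 CPM in the culture libraries, 5049, 6081 and 5387 CPM in bone marrow and, in lung, 4241, 4261 and 4485 CPM. The 3 groups did not overlap, and bone marrow spread most. Of 15 tested subunits 14 rose in bone marrow against culture (median log2 change 0.74), 10 rose and 1 fell in lung against culture (median 0.41), and 11 fell in lung against bone marrow (median -0.29), where the fitted change was below 0 in all 15. Over all tested genes 30.7% rose in bone marrow against culture. In lung against culture 27.9% rose and 27.0% fell, and in lung against bone marrow 11.1% fell.

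Among the alpha subunits, which form the outer rings and gate the pore, Psma4 was raised most. Its level was 133.4, 123.7 and 137.3 CPM in culture, 283.2, 309.6 and 296.9 CPM in bone marrow and, in lung, 241.7, 228.0 and 257.0 CPM. No group overlapped another. The log2 change was 1.17 ± 0.08 (SE, adjusted p = 4.3e-08) in bone marrow against culture and 0.88 ± 0.08 (8.0e-07) in lung against culture. Psma7, the most abundant member per kb of transcript in culture (417.0 CPM per kb), was at 387.5, 358.2 and 397.7 CPM in culture, 689.5, 908.9 and 769.4 in bone marrow libraries and 546.6, 557.7 and 597.5 in lung. It rose 2.07-fold in bone marrow and 1.49-fold in lung against culture. Psma3 was at 204.9 to 216.0 CPM in culture, 363.6 to 441.7 CPM in bone marrow and between 283.2 and 296.2 in lung. It rose by 0.95 ± 0.08 (SE) and 0.47 ± 0.08 on the log2 scale against culture. Psma8, a relative of Psma7 known from the testis, kept to 60.3 to 62.3 CPM in culture and 61.4 to 68.2 CPM in bone marrow and lay at 49.5 to 55.2 CPM in lung. It was the only core subunit that fell in lung against culture (log2 change -0.22 ± 0.08, SE, adjusted p = 0.036), a call lost with upper-quartile or library size scaling and without culture replicate 2 or 3 or lung replicate 1 or 2. Psma7 and Psma8 transcripts share 76.1% of 673 aligned bases, and how reads were assigned between them was not tested. The ratio of Psma8 to Psma7 in CPM was 0.156 to 0.168 in culture libraries, 0.0695 to 0.0890 in bone marrow and between 0.0887 and 0.0955 in lung.

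The 3 catalytic beta subunits rose in both tissues against culture. Psmb5, which cuts after bulky hydrophobic residues and is the main target of bortezomib, was at 92.3, 88.3 and 95.9 CPM in culture, 153.3, 181.0 and 165.7 CPM in bone marrow and, in lung, 136.0, 134.9 and 158.9 CPM. Bone marrow and lung overlapped, and both lay above culture. Its log2 change was 0.85 ± 0.09 (SE, adjusted p = 2.7e-06) in bone marrow and 0.64 ± 0.09 (4.9e-05) in lung against culture. Psmb6, which cuts after acidic residues, rose from 262.7 ± 10.48 CPM (SD, n = 3) to 455.6 ± 36.2 in bone marrow libraries and 378.6 ± 9.54 in lung. Psmb7, which cuts after basic residues, rose from 82.8 ± 2.0 CPM to 138.5 ± 1.24 and 124.1 ± 7.45. Psmb7 shares 11.8% of its exon bases with Nek6 on the other strand, and the counts are named as unstranded. Psmb5 shares 12.1% with Mir686 on the same strand. Psmb6 fell in lung against bone marrow (log2 change -0.27 ± 0.08, SE, adjusted p = 0.023), while Psmb5 (-0.22, adjusted p = 0.089) and Psmb7 (-0.16, 0.13) did not pass. Of the structural beta subunits Psmb3 changed most against culture, with log2 changes of 0.98 in bone marrow libraries and 0.71 in lung. Psmb1 rose in bone marrow (0.48) and did not pass in lung (0.08). Psmb11, the thymus-restricted beta subunit, was under the low-count filter, with 0 reads in every culture library, 4, 1 and 2 in bone marrow libraries and 2, 0 and 0 in lung.

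**Figure D2:**
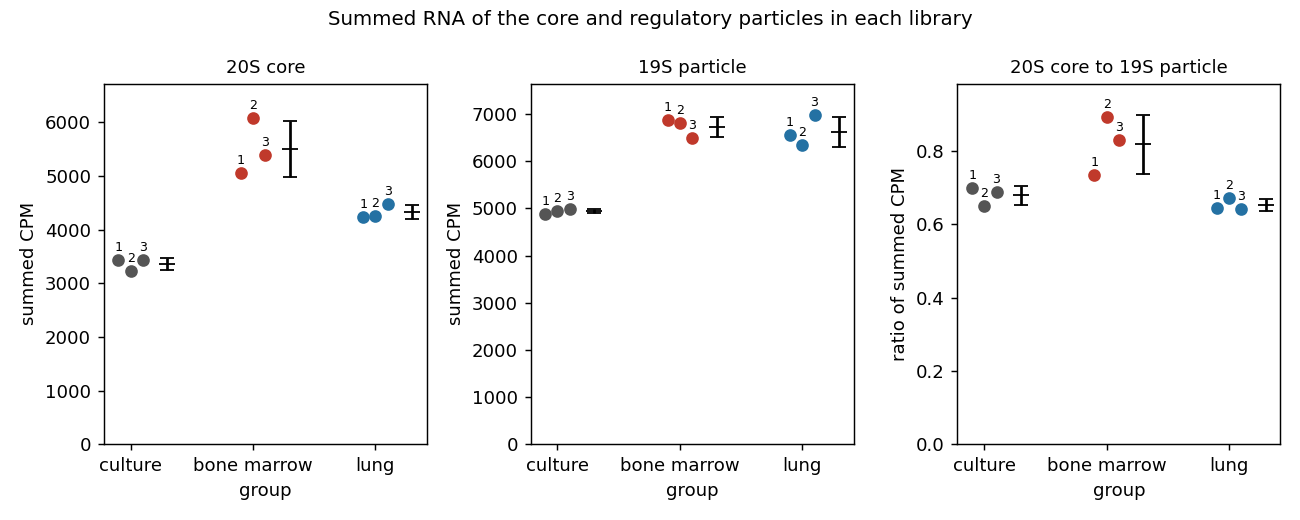
Summed CPM of the 20S core and of the 19S particle in each library, and the ratio of the 20S to the 19S sum; numbered points are libraries and the bar beside them is the group mean with its SD. Both sums are above culture in both tissues, and the ratio is highest in bone marrow, between 0.734 and 0.893. The 19S sum includes the base chaperones Psmd5, Psmd9 and Psmd10.

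The 19S particle was also higher in both tissues than in culture, with little distance between the tissues. Its 20 genes summed to 4892, 4952 and 4987 CPM in culture, 6878, 6813 and 6493 CPM in bone marrow and, in lung, 6562, 6342 and 6977 CPM. Bone marrow and lung overlapped, and both lay above culture. In bone marrow against culture 14 of 20 rose and 1 fell (median log2 change 0.49), where 30.7% of all tested genes rose and 29.8% fell. In lung against culture 15 rose and 2 fell (median 0.46), where the shares were 27.9% and 27.0%. Against bone marrow 3 of the 20 fell in lung (median -0.09), near the 11.1% of all tested genes that fell. Here 0 rose in edgeR's test, in DESeq2 or at an unadjusted p under 0.05, and 8 of the 20 had a fitted change above 0.

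The ATPases that unfold substrates were raised in a graded way. Psmc3 was at 250.4, 248.0 and 248.4 CPM in culture, 445.3, 471.4 and 449.4 CPM in bone marrow and, in lung, 410.4, 406.9 and 452.7 CPM. All tissue libraries lay above culture. It rose by 0.87 ± 0.07 (SE, adjusted p = 3.1e-07) in bone marrow and 0.77 ± 0.07 (1.4e-06) in lung on the log2 scale, and Psmc5 rose by 0.80 and 0.83. Psmc1 rose by 0.71 and 0.64, Psmc2 by 0.57 and 0.46 and Psmc4 by 0.28 and 0.43. Psmc6 was the exception, at 150.5 to 153.2 CPM in culture, 146.9 to 187.6 CPM in bone marrow and between 141.4 and 168.1 in lung, with log2 changes of 0.18 (adjusted p = 0.12) and 0.01 (0.92). In edgeR's quasi-likelihood test 0 of the 6 ATPases passed in lung against bone marrow, 0 had an unadjusted p under 0.05, and DESeq2 also called 0.

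Non-ATPase subunits ranged more widely. Psmd1, the large scaffold of the base, was at 273.3 to 285.2 CPM in culture, 486.2 to 508.8 CPM in bone marrow and between 481.3 and 521.9 in lung, and rose 1.78-fold in each tissue. Psmd13, a lid subunit, was at 118.3, 122.3 and 124.0 CPM in culture, 191.6, 265.9 and 221.1 in bone marrow libraries and 167.7, 180.9 and 197.2 in lung. It rose by 0.90 ± 0.11 (SE) and 0.58 ± 0.11 on the log2 scale. Psmd7, the partner of the deubiquitinase Psmd14, rose by 0.77 and 0.64, Psmd14 itself by 0.54 and 0.29, and the ubiquitin receptor Psmd2 by 0.31 and 0.49. The ubiquitin receptor Psmd4 did not pass in either tissue against culture (0.04 and 0.12), and neither did Psmd8 (-0.15 and -0.21).

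Within the 19S class, Psmd5 and Psmd10, both assembly chaperones of its base, were the passing members that moved against the class median. Psmd5, a chaperone that holds ATPases before the particle is complete and is absent from the finished proteasome, was at 374.9, 390.9 and 411.7 CPM in culture, 291.1, 271.8 and 296.2 CPM in bone marrow and, in lung, 293.0, 296.6 and 326.0 CPM. Every tissue library lay under every culture library. It fell by 0.45 ± 0.08 (SE, adjusted p = 0.00017) in bone marrow and 0.36 ± 0.08 (0.0012) in lung on the log2 scale. Psmd10, the base chaperone gankyrin, was at 92.5 to 94.3 CPM in culture, 66.9 to 88.0 CPM in bone marrow and between 60.1 and 68.8 in lung. It fell in lung (-0.53, adjusted p = 0.00054) and did not pass in bone marrow (-0.24, adjusted p = 0.051). Psmd9, the remaining base chaperone among the members, rose by 0.40 and 0.29, with 25.5% of its exon bases shared with a gene on the other strand.

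**Figure D3:**
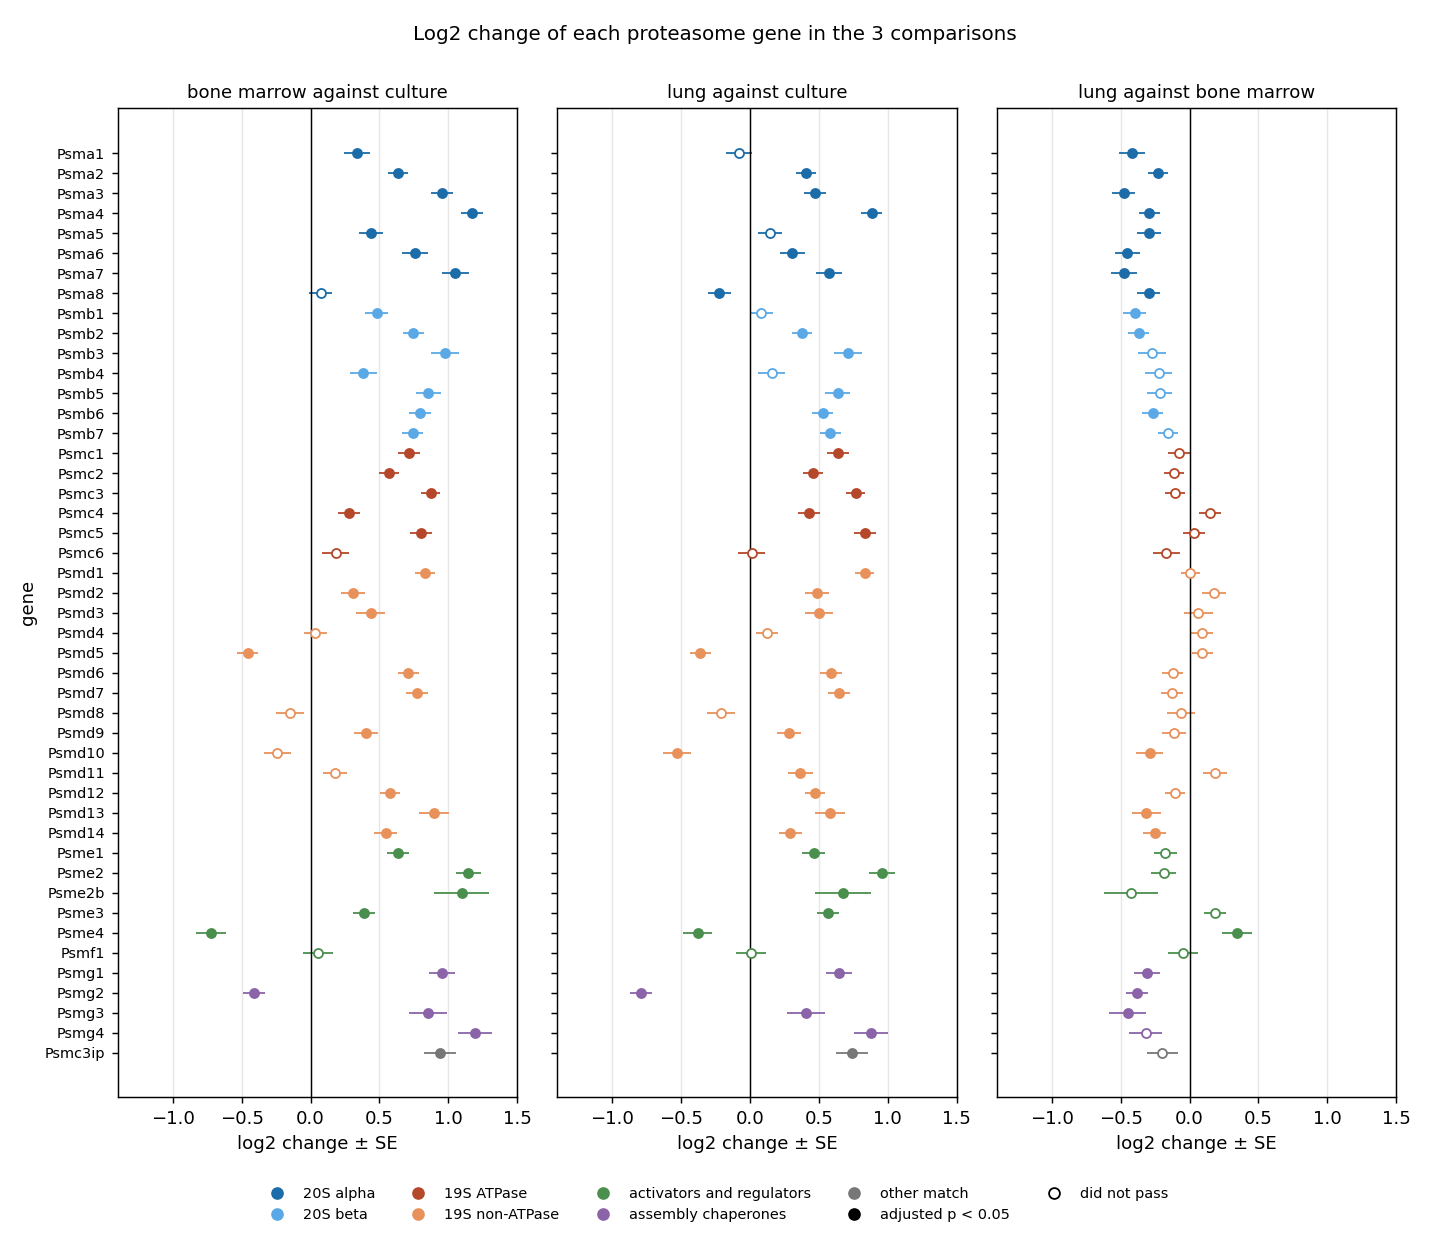
Log2 change of every tested member in each comparison (points) with its standard error (bars), grouped by role class; filled points passed at an adjusted p under 0.05. In lung against bone marrow the 20S core points all lie below 0, from -0.48 to -0.16, and the 19S points lie between -0.31 and 0.19.

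Lung against bone marrow gave smaller changes, and most of those that passed were in the 20S core. All 8 alpha subunits fell, led by Psma3 (log2 change -0.48 ± 0.08, SE, adjusted p = 0.0012), Psma7 (-0.48 ± 0.10, 0.0038) and Psma6 (-0.45 ± 0.09, 0.0037), and no alpha subunit's lung libraries overlapped bone marrow. Of 7 beta subunits 3 fell, which were Psmb1 (-0.40), Psmb2 (-0.37) and Psmb6. Over the core 13 of 15 subunits had every lung library below every bone marrow library, as had 18.1% of all tested genes. In the 19S particle Psmd13 (-0.31, adjusted p = 0.045), Psmd10 (-0.29, 0.048) and the deubiquitinase Psmd14 (-0.25, 0.041) fell, each close to the threshold. The ratio of the 20S sum to the 19S sum was 0.701, 0.650 and 0.688 in culture, 0.734, 0.893 and 0.830 in bone marrow libraries and 0.646, 0.672 and 0.643 in lung. With the base chaperones Psmd5, Psmd9 and Psmd10 in the 19S sum, all bone marrow ratios lay above the rest, and lung overlapped culture. Psmd5 and Psmd10 were higher in every culture library than in every tissue library, so they add most to the 19S sum in culture. Ratios without the 3 chaperones are not given, and the order of the groups holds only for the sums as defined. Whether the 2 particles differ in their response was not tested.

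The number of falls depended on single libraries. The 11 falls in the core became 7 without bone marrow replicate 2, 7 without lung replicate 1 and 6 without lung replicate 2. The 17 falls among all members became 8, 8 and 7 in the same order. Over all tested genes the share that fell went from 11.1% to 5.92%, 6.83% and 6.27% in these settings. Psmd14's call was lost without any 1 library other than bone marrow replicate 1, and Psmd13's, Psmd10's and Psma2's without most of them. The 20S sum was lowest in bone marrow replicate 1 and highest in replicate 2 and the summed neutrophil genes were lowest in replicate 1 and highest in replicate 3, and both sums were lower in every lung library than in every bone marrow library. The part of the cells that made the granule gene RNA in the falls was not tested.

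Transcript length moved with these changes over the whole transcriptome. In lung against bone marrow the median log2 change of tested coding genes was -0.18 in the shortest of 5 length bins of equal size (66 to 1676 bases) and 0.21 in the longest (4856 bases and more), with -0.02, 0.04 and 0.12 between them. In the shortest bin 24.1% of genes fell and in the longest 2.68%. The median transcript was 1165 bases for the 20S core and 1710.5 bases for the 19S particle, and the smoothed trend over all genes gave medians of -0.18 and -0.08 at the members' lengths. With the trend taken out, an alternative chosen after seeing the data, 3 core subunits fell in lung against bone marrow: Psma3 (-0.49, adjusted p = 0.00081), Psmb1 (-0.30, 0.014) and Psma2 (-0.25, 0.026). Of all tested genes 8.06% then fell. The core's median became -0.11, Psmb6's change 0.02, and Psmd13, Psmd10 and Psmd14 no longer passed, while Psmc4 (0.29) and Psmd4 (0.25) rose. The core's median difference from the trend was -0.13 by transcript length and -0.22 by coding length. The part of transcript length in the fall was not tested further.

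The rises against culture were less affected. Bone marrow against culture had the opposite trend, from 0.31 in the shortest to -0.30 in the longest bin, and lung against culture a shallower one, from 0.12 to -0.10. With the trend taken out 12 core and 13 of the 19S genes still passed as higher in bone marrow, with medians of 0.50 and 0.38, where 30.1% of all tested genes rose. In lung against culture 10 and 15 passed, where 29.1% of all tested genes rose. Falls of long transcripts ran with the trend. At Psmd5's 4397 bases the trend was -0.19 in bone marrow and -0.07 in lung against culture, beside its changes of -0.455 and -0.363.

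**Figure D4:**
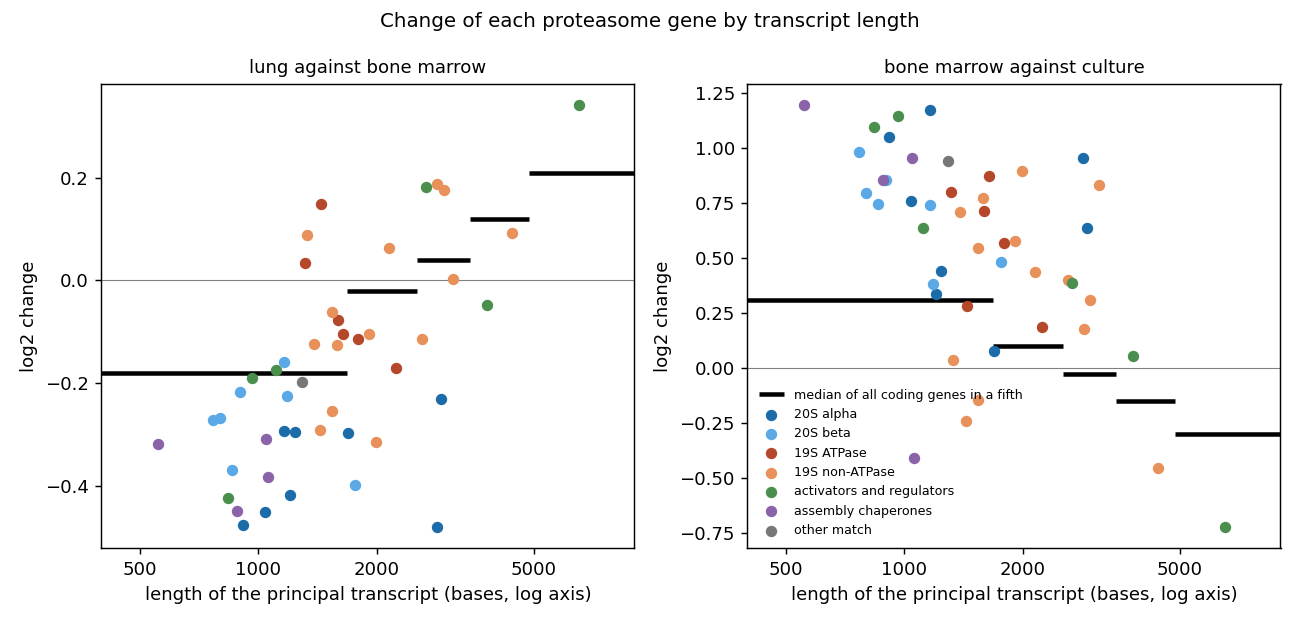
Log2 change of each tested member (points, coloured by class) in lung against bone marrow (left) and in bone marrow against culture (right), by the length of its principal transcript in bases on a log axis. Black lines are the medians of all tested coding genes in 5 length bins, from -0.18 to 0.21 on the left and from 0.31 to -0.30 on the right, and the 20S core genes sit among the short transcripts.

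The activators, which open the 20S core in place of the 19S cap, went separate ways: of 6 genes of this class, Psmf1 included, 4 rose and 1 fell in each tissue against culture, with medians of 0.51 and 0.52. Of all tested genes 30.7% rose and 29.8% fell in bone marrow against culture, and 27.9% rose and 27.0% fell in lung. Psme1 and Psme2 encode the subunits of PA28 alpha beta, an interferon-induced cap linked to antigen processing. Both lie on chromosome 14 (Psme1 at chr14:55578123-55581529 and Psme2 at chr14:55587441-55591113, GRCm38). Psme2 was at 120.0, 111.5 and 118.0 CPM in culture, 237.2, 281.1 and 254.9 CPM in bone marrow and, in lung, 213.9, 211.1 and 253.2 CPM, and Psme1 was at 186.8 to 197.9, 275.4 to 322.1 and 252.3 to 283.1 CPM. Both tissues lay above culture and overlapped each other. Psme2 rose by 1.15 ± 0.09 (SE, adjusted p = 2.2e-07) and 0.96 ± 0.09 (1.5e-06) on the log2 scale, and Psme1 by 0.64 ± 0.08 and 0.46 ± 0.08. Neither passed in lung against bone marrow (-0.19 and -0.17). Psme2b, a retrocopy with 1 exon, was at 1.78 to 3.96 CPM in all libraries, and it shares 99.4% of 794 aligned bases with Psme2, so its counts are uncertain. It is 1 of the 4 rises against culture (1.10, adjusted p = 0.00036, and 0.67, 0.012) and is in the class medians, so those hold Psme2 and its copy.

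Psme3, the nuclear activator PA28 gamma, was at 361.3 to 369.2 CPM in culture, 447.1 to 533.6 CPM in bone marrow and between 537.2 and 550.0 in lung. Every lung library lay above every bone marrow library, as in 18.5% of all tested genes, but the change of 0.18 ± 0.08 (SE) between the tissues did not pass (adjusted p = 0.11). It rose by 0.39 in bone marrow libraries and 0.57 in lung against culture. Psme4, the large activator PA200, went down where most members went up. It was at 135.9, 132.5 and 141.2 CPM in culture, 96.8, 76.4 and 74.7 CPM in bone marrow and, in lung, 112.3, 109.8 and 92.0 CPM. Culture lay above both tissues, and the tissues overlapped. It fell by 0.72 ± 0.11 (SE, adjusted p = 6.0e-05) in bone marrow and by 0.38 ± 0.11 (0.0081) in lung, and it was the 1 member that passed as higher in lung than in bone marrow (0.34 ± 0.11, 0.033). That last call was lost without most single libraries and with the length trend removed (0.15, adjusted p = 0.22), and with 6491 bases Psme4 is the longest transcript among the members. The trend over all genes at this length was -0.31 in bone marrow and -0.12 in lung against culture. Psme4's changes differed from this trend by -0.41 and -0.26. In the longest length bin 48.8% of coding genes fell in bone marrow and 34.6% in lung against culture. Per 20S core, the ratio of Psme4 to the summed core in CPM was 0.0397 to 0.0411 in culture libraries, 0.0126 to 0.0192 in bone marrow and between 0.0205 and 0.0265 in lung. The ratio of Psme1 and Psme2 to the core was 0.0892 to 0.0928, 0.0984 to 0.105 and 0.109 to 0.120. Both ratios kept the 3 groups apart. Psmf1, the inhibitor PI31, did not pass in any comparison (log2 changes 0.05, 0.01 and -0.05).

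**Figure D5:**
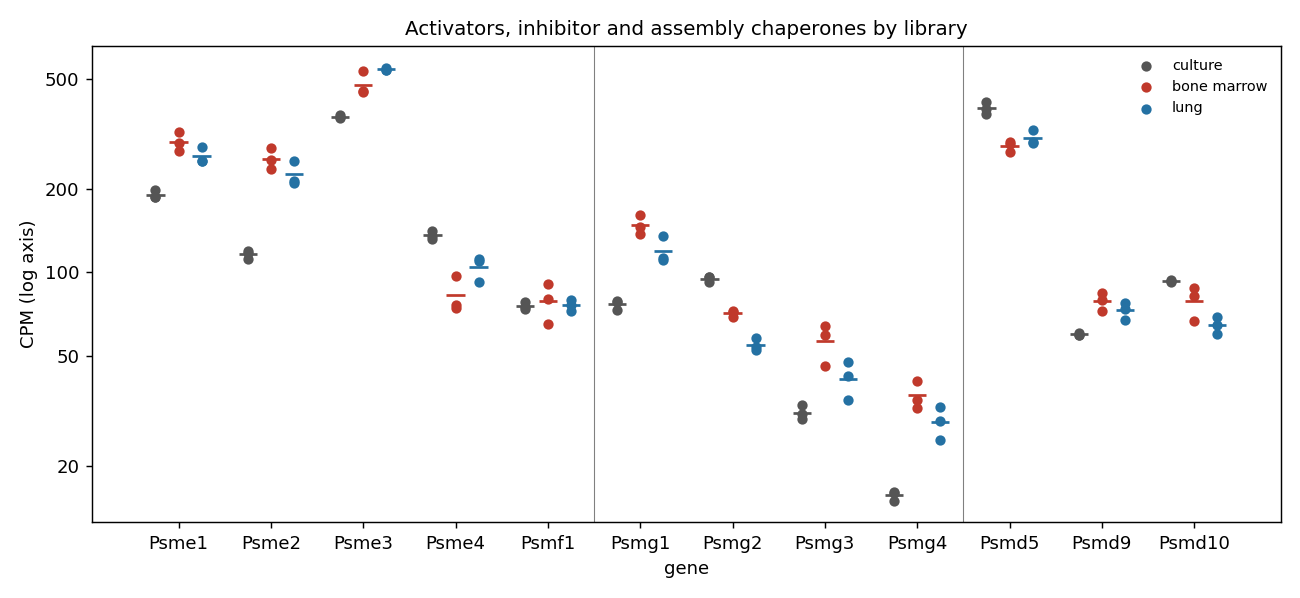
CPM on a log axis of the activators and Psmf1 (left, without the low Psme2b), the 20S assembly chaperones (middle) and the 19S base chaperones Psmd5, Psmd9 and Psmd10 (right); points are libraries coloured by group and short lines are group means. Psme2, Psmg1 and Psmg4 are above culture in both tissues, while Psme4, Psmg2 and Psmd5 are below it.

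The assembly chaperones of the 20S core also moved in both directions, 3 rising and 1 falling in each tissue against culture. The shares over all tested genes are those given for the activators. Psmg1 and Psmg2 form the heterodimer PAC1-PAC2, which gathers alpha subunits, and Psmg3 and Psmg4 form PAC3-PAC4. Psmg1 was at 78.6, 73.4 and 78.1 CPM in culture, 138.1, 161.6 and 146.3 CPM in bone marrow and, in lung, 112.8, 111.4 and 135.8 CPM. Its partner Psmg2 was at 95.9, 92.7 and 96.0 CPM in culture, 72.2, 72.6 and 69.1 in bone marrow libraries and 53.6, 58.1 and 52.4 in lung. For both genes no group overlapped another, in opposite orders against culture. Psmg1 rose by 0.95 ± 0.10 (SE, adjusted p = 1.5e-06) and 0.65 ± 0.09 (6.4e-05) on the log2 scale. Psmg2 fell by 0.41 ± 0.08 (0.00045) and 0.79 ± 0.08 (2.0e-06), and by 0.38 ± 0.08 (0.0039) in lung against bone marrow. The ratio of Psmg1 to Psmg2 in CPM was 0.792 to 0.820 in culture libraries, 1.91 to 2.23 in bone marrow and between 1.92 and 2.59 in lung. Psmg4 rose 2.29-fold in bone marrow and 1.84-fold in lung against culture, and Psmg3 by 0.85 and 0.41 on the log2 scale. Psmg1 (-0.31) and Psmg3 (-0.45) fell in lung against bone marrow and Psmg4 (-0.32, adjusted p = 0.067) did not pass. With the length trend removed the falls of Psmg1, Psmg2 and Psmg3 between the tissues no longer passed (-0.09, -0.17 and -0.19, adjusted p = 0.44, 0.16 and 0.27). The calls of Psmg1 and Psmg3 were also lost without bone marrow replicate 2, lung replicate 1 or lung replicate 2. Psmc3ip, matched by its symbol alone, rose by 0.94 and 0.74, with 21.2% of its exon bases shared with Mlx on the other strand.

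The immunoproteasome subunits, which replace the catalytic ones in interferon-exposed cells, had larger changes against culture than the subunits they replace. All 3 rose in both tissues, with medians of 1.42 in bone marrow libraries and 1.31 in lung. Of all tested genes 30.7% rose in bone marrow and 27.9% in lung against culture. Psmb10 was at 23.4 to 27.8 CPM in culture, 113.4 to 146.8 CPM in bone marrow and between 106.7 and 130.2 in lung (log2 changes 2.29 ± 0.12 and 2.18 ± 0.12, SE). The ratio of Psmb8, Psmb9 and Psmb10 to Psmb5, Psmb6 and Psmb7 in summed CPM was 0.221 to 0.223 in culture libraries, 0.398 to 0.429 in bone marrow and between 0.424 and 0.439 in lung. Psmb9 fell in lung against bone marrow (-0.41, adjusted p = 0.016), where 11.1% of all tested genes fell, and Psmb8 and Psmb10 did not pass.

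Other genes of the pathway were counted by list. Of 16 proteasome-bound receptors and enzymes 4 rose and 6 fell in bone marrow and 6 rose and 2 fell in lung (medians -0.09 and 0.02). Over all tested genes 30.7% rose and 29.8% fell in bone marrow and 27.9% and 27.0% in lung. Adrm1, the 19S ubiquitin receptor outside the naming rule, rose by 1.05 and 1.26. Ubqln2, a shuttle factor, fell by 0.61 in bone marrow and did not pass in lung (-0.28, adjusted p = 0.17). Ecpas, which tethers the 2 particles, fell by 0.445 in bone marrow and 0.453 in lung. Its transcript has 7045 bases, and in the longest length bin 48.8% of coding genes fell in bone marrow and 34.6% in lung. In lung against bone marrow 3 of the 16 rose and 2 fell, where 14.2% of all tested genes rose and 11.1% fell. The largest were Zfand5, a proteasome-binding zinc finger protein (0.47), and Txnl1, a 19S-bound thioredoxin (-0.35).

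Of 5 tested assembly and import factors 3 rose and 1 fell in bone marrow and 4 rose and 1 fell in lung (medians 0.37 and 0.41), where the shares over all tested genes are those given for the receptors. Pomp, which matures the 20S core, was at 157.1 to 171.2 CPM in culture, 268.6 to 305.4 CPM in bone marrow and between 205.3 and 233.1 in lung. Like the core it rose in both tissues (0.80 and 0.42) and fell in lung against bone marrow (-0.39, adjusted p = 0.0046). Akirin2, which brings proteasomes into the nucleus, fell by 0.61 in bone marrow libraries and 0.39 in lung. Hsp90ab1, a cytosolic chaperone, rose by 0.46 in bone marrow and 0.49 in lung. Of 8 genes of the p97 segregase, which extracts ubiquitinated proteins, 2 rose and 2 fell in bone marrow and 4 rose and 2 fell in lung (medians 0.04 and 0.27), beside 30.7% and 29.8% of all tested genes in bone marrow and 27.9% and 27.0% in lung. Ufd1, a p97 cofactor, rose by 0.53 and 0.51. Faf1 fell by 0.33 in bone marrow and 0.217 in lung, and Faf2 fell by 0.185 in bone marrow and 0.32 in lung. Nploc4 was the 1 gene of the list that rose in lung against bone marrow (0.41), where 14.2% of all tested genes rose.

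Of 11 tested regulators of proteasome gene transcription 2 rose and 4 fell in bone marrow and 3 rose and 1 fell in lung (medians -0.11 and -0.09), again beside shares of 30.7% and 29.8%, and of 27.9% and 27.0%, over all tested genes. Nfe2l1, the gene of NRF1, went opposite to most proteasome genes. It was at 236.0, 240.4 and 243.2 CPM in culture, 130.2, 107.1 and 113.5 CPM in bone marrow and, in lung, 172.4, 152.7 and 143.7 CPM, and no group overlapped another. It fell by 1.04 ± 0.09 (SE, adjusted p = 5.3e-07) in bone marrow and 0.62 ± 0.09 (6.7e-05) in lung, and rose by 0.42 ± 0.09 (0.0053) in lung against bone marrow. NRF1 is known to be controlled mainly through the protein's stability and processing, which these data do not measure. Nfyc, an NF-Y subunit, rose by 0.51 in bone marrow and 0.645 in lung against culture. Mafk, a partner of NRF1, rose by 0.70 in lung against culture and by 0.47 in lung against bone marrow. In bone marrow against culture Mafk did not pass (0.23, adjusted p = 0.082).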

How the data were processed

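Total RNA was amplified with the SMART-seq v4 low-input kit and made into libraries with ThruPLEX, per the labels' protocols. The authors deposited raw read counts per gene symbol, 1 table per library. bcl2fastq, STAR and mm10 are named in the submitters' processing notes; their versions, the counting tool and its annotation are not stated there. The tables are named as unstranded. Coordinates and lengths come from GENCODE M21 (GRCm38).

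The counts of all 9 libraries were filtered with filterByExpr, scaled with TMM and fitted in 1 model with edgeR 4.0.16 (R 4.3.3, glmQLFit, robust, group only), and p-values were adjusted by Benjamini-Hochberg over 15066 genes. SEs are of the log2 change. With 3 libraries against 3 an exact permutation test cannot go below 0.10. Members and lists were chosen with earlier results of these data known. The naming rule takes per class and comparison the 3 largest passing changes and passing members against the class median, plus all activators and Psmb5, Psmb6 and Psmb7; per pathway list it takes the largest passing change in each direction. Genes beyond it (Psmc1, Psmc2, Psmc4, Psmc6, Psmd2, Psmd4, Psmd7, Psmd8, Psmd9, Psmd14 and Psma2, among others, for comparisons in which the rule did not take them) were chosen after their values were seen.

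On simulated data with 50 changed genes per fold size, 58% of 1.5-fold and 84% of 2-fold changes were recovered for lung against bone marrow, with 13 false calls among 14708 genes. For bone marrow against culture it was 56% and 78% (8 false calls among 14718), and for lung against culture 50% and 80% (14 among 14730). The changed genes were drawn at random from expressed genes, not from the members alone. Libraries of a group differed beyond sampling noise (chi-square over degrees of freedom at least 4.17). Alternatives comprised other scalings, filters and thresholds, DESeq2 1.42.0, limma-voom (limma 3.58.1), fits of 6 libraries, the replicate number as a block, leaving out each library, a narrower member list and removal of the length trend. One further pathway list is not reported here.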

Additional observations from a re-analysis of the deposited data

How the results depend on the processing

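Member by member, calls and directions kept in 855 of 874 values for bone marrow against culture, 847 for lung against culture and 770 for lung against bone marrow (82 weaker, 21 stronger, 1 reversed). In lung against bone marrow members called higher were 0 with upper-quartile scaling, with the 6 libraries alone and at an adjusted p under 0.01, and 2 with the length trend removed. Members called lower were 8 with 6 libraries, 3 without the trend and 7 at 0.01, and 20S genes 7, 3 and 6. Over all tested genes 6.73% were lower with 6 libraries and 8.06% without the trend, against 11.1% in the main fit. 19S genes called lower were 0 with RLE scaling, 6 libraries, the trend removed and 0.01, and called higher 2 with the trend removed. The activators' single rise became 0 with upper-quartile scaling, 6 libraries, the trend removed and 0.01. Upper-quartile scaling gave 1796 higher and 2088 lower genes over all, against 2138 and 1668. With the trend removed medians were -0.03 (members), -0.11 (20S), 0.00 (19S) and 0.04 (activators, reversed), and Psmb6 reversed to 0.02. In bone marrow against culture it gave 5 members and 3 19S genes lower, medians of 0.46, 0.50, 0.38 and 0.39, and reversed Usp14 (0.16), Ube3a (0.01), Zfand5 (0.23) and Ipo9 (0.28). 19S genes called lower were 2 with RLE, DESeq2 and limma-voom. Upper-quartile and library size scaling gave medians of 0.71 and 0.70 (members), 0.56 and 0.55 (19S) and 0.58 and 0.57 (activators), and 4834 and 4822 CPM for the 19S sum in culture. The activators' median without Psmf1 was 0.64 in bone marrow libraries and 0.57 in lung against culture and -0.17 in lung against bone marrow. In lung against culture the 1 lower 20S gene was lost with upper-quartile and library size scaling, without the low-count filter and at 0.01 (0 each). The 20S median was 0.45 with library size scaling and 0.46 without the filter, and the activators' 0.56 with library size scaling. The causes of these differences were not tested.

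Leaving out each library in turn gave, in lung against bone marrow, 0 to 4 members higher and 7 to 20 lower, 6 to 13 20S genes lower, 0 to 2 19S genes higher and 0 to 4 lower, 0 to 2 activators higher and 0 to 1 lower, and medians of -0.27 to -0.13 (members) and -0.20 to -0.06 (activators). Over all tested genes 9.11% to 17.2% were higher and 5.92% to 13.4% lower in these fits. In bone marrow against culture 19S genes lower were 1 to 2 and medians 0.58 to 0.66 (members) and 0.46 to 0.52 (19S). In lung against culture 20S genes lower were 0 to 1 and medians 0.34 to 0.42 (20S) and 0.46 to 0.53 (activators).

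No label says that libraries of the same number belong together. Same-numbered bone marrow and lung libraries correlated in their deviations at 0.03, 0.27 and 0.09 over all tested genes and at 0.41, 0.43 and 0.31 over the 6481 genes that reached 32 CPM, and culture libraries did not pair. With the replicate block 4133 genes passed in lung against bone marrow in place of 3806, and 10 20S genes fell in place of 11. 19S genes called lower in bone marrow against culture were 2 with the block.

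With 3 libraries per group few small changes were recovered in simulated data, 12% of the smallest in lung against bone marrow. The genes changed there were drawn from all expressed genes, and the members alone were not simulated. Further limits are that spread between libraries was larger in the tissues than in culture. RNA of marker genes of other cells in the tissue libraries was measured and not removed. RNA levels say nothing of assembled proteasomes or their activity.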
